A study of Rattus norvegicus with 10 samples.

Results

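The genes described here are those of the rat major histocompatibility complex (MHC), named RT1 in this species, together with the genes that prepare peptides for its molecules. A row of the deposited table belongs to the set if its gene field holds a symbol starting with RT1- or Cd74, B2m, Tap1, Tap2, Tapbp, Psmb8, Psmb9, Psmb10 or Ciita. The rule also names Psme1b, which was not analysed here. It took 72 of the 20638 rows with a gene name, among 94827 rows in all. These 72 rows carry 57 different member symbols, 48 of them RT1 symbols. Of the rows, 63 name a single gene and 9 are merged loci that name several, whose value belongs to none of the genes alone.

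The samples were testes of Wistar rats at postnatal day 120. In the BDE-47 group the mothers were fed 0.2 mg/kg body weight per day of BDE-47, a flame retardant of the brominated diphenyl ether class, in tocopherol-stripped corn oil, and in the vehicle group the oil without it. Feeding ran from pregnancy day 8 to postpartum day 21, with 7 mothers assigned to each group, so the males were exposed before birth and while suckling. The labels give 5 libraries of poly(A) RNA per group and no litter, and the table holds 1 value per group and row. The values are in FPKM (fragments scaled to transcript length and to the number sequenced), and depth is unknown. No spread between animals can be given, so no difference was tested.

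MHC class I molecules are a heavy chain paired with the light chain encoded by B2m. They show peptides cut by the proteasome in the cytosol, carried into the endoplasmic reticulum by the Tap1-Tap2 transporter and loaded with the help of tapasin, the product of Tapbp. Class II molecules pair an alpha with a beta chain, travel with the invariant chain encoded by Cd74 and present peptides from endosomes. In the testis, germ cells are known for low class I levels, and the macrophages between the tubules are known to carry class II.

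Many of the MHC and antigen processing rows had higher values in the BDE-47 column, and few had lower ones. A row is called higher or lower if log2(FPKM + 1) differed by at least 1, which is 2-fold on that scale. This is a rule of size and understates the difference of low rows. By this rule 25 of the 72 rows were higher in the BDE-47 column, 2 were lower and 45 lay within 2-fold. These were 34.7% higher and 2.78% lower of the 72 rows, against 18.2% higher and 2.27% lower of all named rows. Where the mean of both columns reached 1 FPKM, 22 of 38 member rows were higher and 2 were lower, against 27.6% and 3.55% of all such named rows. The median difference was 0.43 over the 72 rows and 0.09 over all named rows. Of the 25 higher rows, 21 were also past 2-fold in the same direction under all 3 other scalings of the columns (median-of-ratios, quantile, and without the most abundant loci). Of the member rows past 2-fold, 25, 21, 21 and 25 were higher and 2 lower, as deposited and under these scalings in turn, while the share higher of all named rows past 2-fold was 88.9%, 61.1%, 51.2% and 77.5%. The 4 rows that did not stay past 2-fold were RT1-DOa, RT1-O1, 1 RT1-T24-3 row and the lower-level RT1-CE6 row. In bulk tissue, more cells of a type and more RNA per cell cannot be told apart. The directions rest on the column names, and the libraries behind each column could not be checked. In the sample titles, the libraries labelled BDE-47 carry codes with C and those labelled vehicle carry codes with X. Were the columns exchanged, every higher row would be lower by the same amount and every lower row higher.

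The class I heavy chains of the RT1-A and RT1-CE series, which include the classical presenting molecules of the rat, held the largest differences of the set in both directions. The merged row of RT1-A1 and RT1-A2 was at 468 FPKM in the BDE-47 column, against 29.2 FPKM in the vehicle column, 16-fold higher. It ranked 27th among the 20638 named rows by difference. The merged row of RT1-A3 and RT1-CE16 was at 86.2 FPKM in the BDE-47 column, against 10.4 FPKM in the vehicle column. A merged row of 9 RT1-CE genes was at 85.0 FPKM in the BDE-47 column, against 10.3 FPKM in the vehicle column. The 3 merged rows thus differed in the same direction by 8.22-fold to 16-fold. RT1-CE10 was at 43.4 FPKM in the BDE-47 column and 5.50 FPKM in the vehicle column. The highest of the 3 RT1-CE14 rows was at 51.3 FPKM in the BDE-47 column and 5.10 FPKM in the vehicle column. The other RT1-CE14 rows were at 0.586 and 0.497 FPKM in the BDE-47 column, against 0.0981 and 0.154 FPKM in the vehicle column, and RT1-CE15 was at 1.38 FPKM in BDE-47, against 0.237 FPKM in vehicle. Over the 12 rows of these series, 6 were higher, 2 were lower and the median difference was 1.03. These were 50% higher and 16.7% lower, against 18.2% and 2.27% of all named rows.

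Both rows of the set that were lower in the BDE-47 column belong to these series, and each shares its bounds with rows that were higher. RT1-A1, listed by itself, was at 0 in the BDE-47 column and 95.7 FPKM in the vehicle column. Its bounds on build rn5, chr20:7413078-7478156, are those of the merged row of RT1-A1 and RT1-A2. These bounds hold 4 rows in all. The 2 member rows summed to 468 FPKM in the BDE-47 column and 125 FPKM in the vehicle column, 3.75-fold higher rather than 16-fold. An RT1-CE6 row was at 24.3 FPKM in the BDE-47 column, against 65.8 FPKM in the vehicle column, while another RT1-CE6 row was at 1.64 FPKM in BDE-47 and 0.207 FPKM in vehicle. Both stand in chr20:6709072-7038454, whose 6 member rows summed to 163 FPKM in the BDE-47 column and 81.7 FPKM in the vehicle column. This sum was 1.999-fold higher, a difference of 0.99 on the log2(FPKM + 1) scale, just short of the 2-fold rule. Paralogous class I genes share reads, so the split of signal between the rows of an interval is uncertain and the sums are given beside them. With rows of the same bounds summed, 17 of 41 intervals were higher and 0 were lower, against 20.6% higher and 2.01% lower of all named intervals.

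B2m, the light chain shared by all class I molecules of this kind, stands outside the RT1 region on chromosome 3 (chr3:120627499-120633523). Its row names no other gene. B2m was at 671 FPKM in the BDE-47 column, against 54.9 FPKM in the vehicle column, 12.2-fold higher. This was the highest level of any row of the set in the BDE-47 column.

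**Figure D1:**
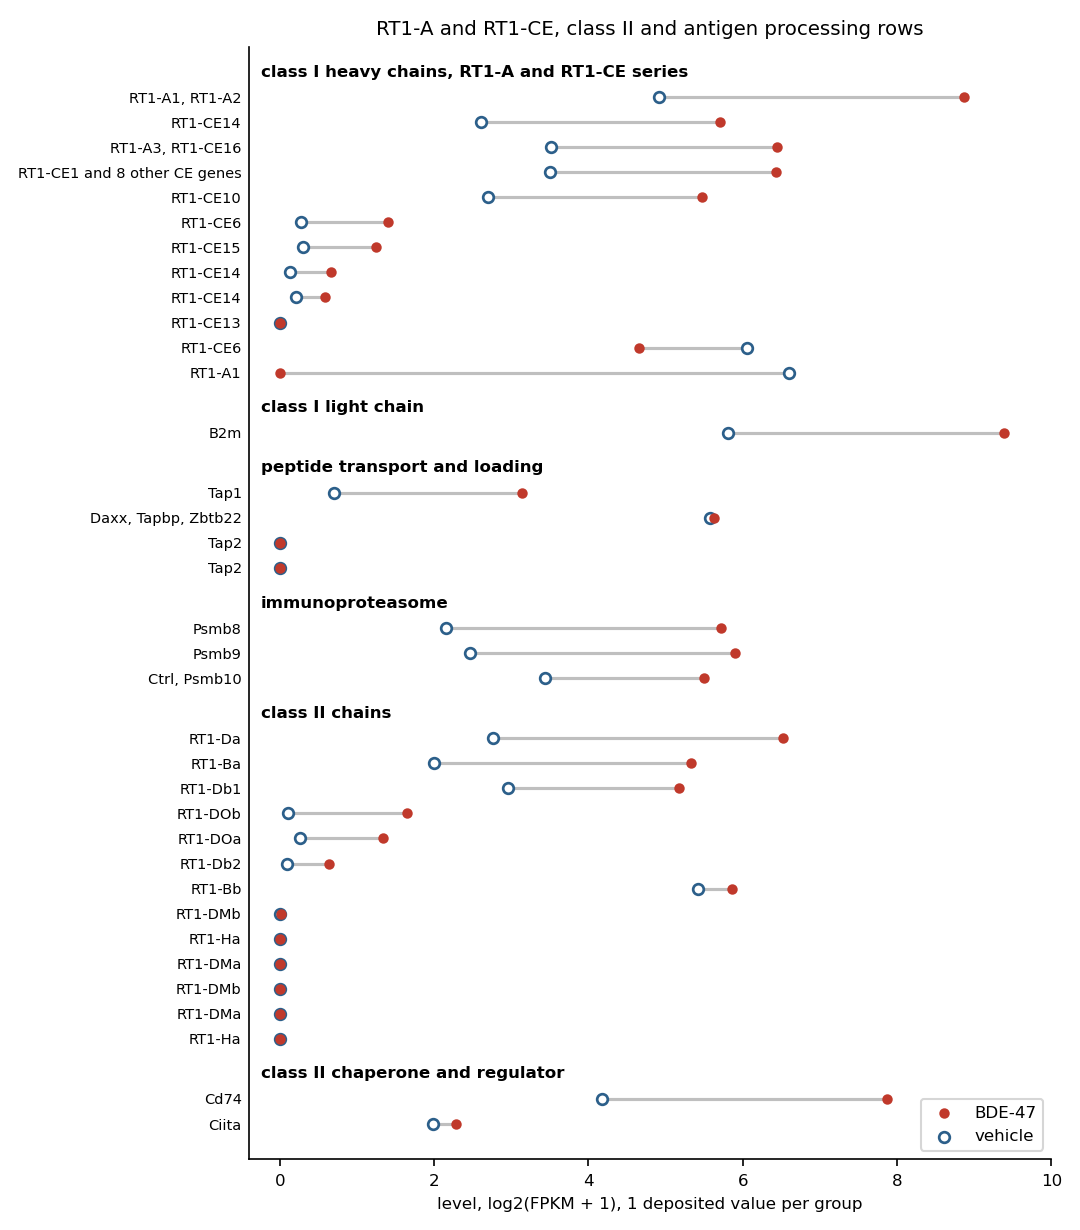
Levels of the RT1-A and RT1-CE rows, the class I light chain, the transport, loading and proteasome rows and the class II rows, as log2(FPKM + 1), with 1 deposited value per group (filled red, BDE-47; open blue, vehicle). Most red points lie right of the blue ones, RT1-A1 and an RT1-CE6 row lie left, and Tap2, RT1-DMa, RT1-DMb and RT1-Ha lie at 0 in both or next to it.

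The RT1-N, RT1-O, RT1-S and RT1-T series encode further class I heavy chains, most of them at low levels here. RT1-S3 was highest among the single-gene rows at 26.9 FPKM in the BDE-47 column, against 2.62 FPKM in the vehicle column. The merged row of RT1-T24-4 and LOC360231 was at 13.0 FPKM in the BDE-47 column, against 1.51 FPKM in the vehicle column. RT1-N2 was at 4.17 FPKM in the BDE-47 column and 0.332 FPKM in the vehicle column, and RT1-S2 at 3.16 FPKM in BDE-47 and 0.182 FPKM in vehicle. The highest RT1-N3 row was at 5.06 FPKM in BDE-47 and 0.697 FPKM in vehicle, the highest RT1-T24-3 row at 1.91 FPKM in BDE-47 and 0.330 FPKM in vehicle, and the highest RT1-O1 row at 1.39 FPKM in BDE-47 and 0.124 FPKM in vehicle. Of the 20 rows, 7 (35%, against 18.2% of all named rows) were higher, none was lower and 13 lay within 2-fold. Over the 20 rows the median difference was 0.68. Because most of the vehicle values were under 1 FPKM, the added pseudocount compressed their differences. By the ratio in the authors' deposited table, 18 of these 20 rows reached 2-fold higher and none reached 2-fold lower. Of all named rows above the floor in both columns, 34.9% and 6.73% did. The exceptions by ratio were RT1-T18, at 0.180 FPKM in the BDE-47 column and 0.287 FPKM in the vehicle column, and the merged row of RT1-S3, RT1-T24-2 and RT1-T24-4, at 11.9 FPKM in BDE-47 and 12.9 FPKM in vehicle. The bounds chr20:5249892-5352132 hold 26 rows in all. Their 17 member rows summed to 69.9 FPKM in the BDE-47 column and 19.9 FPKM in the vehicle column, 3.52-fold higher.

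The RT1-M series showed no common direction, apart from RT1-M3-1. Of its 17 rows 1 (5.88%, against 18.2% of all named rows) was higher and none was lower. The series had a median difference of 0.06, which turned to -0.14 under quantile normalization. By the deposited ratio, 4 of the 16 rows above the floor in both columns reached 2-fold higher and none 2-fold lower. Of all such named rows, 34.9% and 6.73% did. RT1-M3-1, whose mouse counterpart presents peptides that start with formylmethionine, was at 8.94 FPKM in the BDE-47 column, against 0.655 FPKM in the vehicle column, 13.6-fold higher. RT1-M4 was at 1.66 FPKM in the BDE-47 column and 2.16 FPKM in the vehicle column, and RT1-M5 at 0.865 FPKM in BDE-47 and 1.22 FPKM in vehicle. The 9 rows naming RT1-M6-1 or RT1-M6-2 lay within 2-fold on the log2(FPKM + 1) scale. By ratio 1 of them, an RT1-M6-1 row, was 2.50-fold higher, at 1.47 FPKM in BDE-47 and 0.590 FPKM in vehicle. The 9 rows summed to 106 FPKM in the BDE-47 column and 105 FPKM in the vehicle column. Most of it was in a row merged with Znrd1 and Znrd1as1 (94.4 FPKM in BDE-47 and 95.7 FPKM in vehicle). RT1-M1-2, RT1-M1-4, RT1-M1-5, RT1-M2 and RT1-M10-1 were each at 0.0797 FPKM or less in both columns, RT1-M10-1 being listed at 0 in the BDE-47 column.

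**Figure D2:**
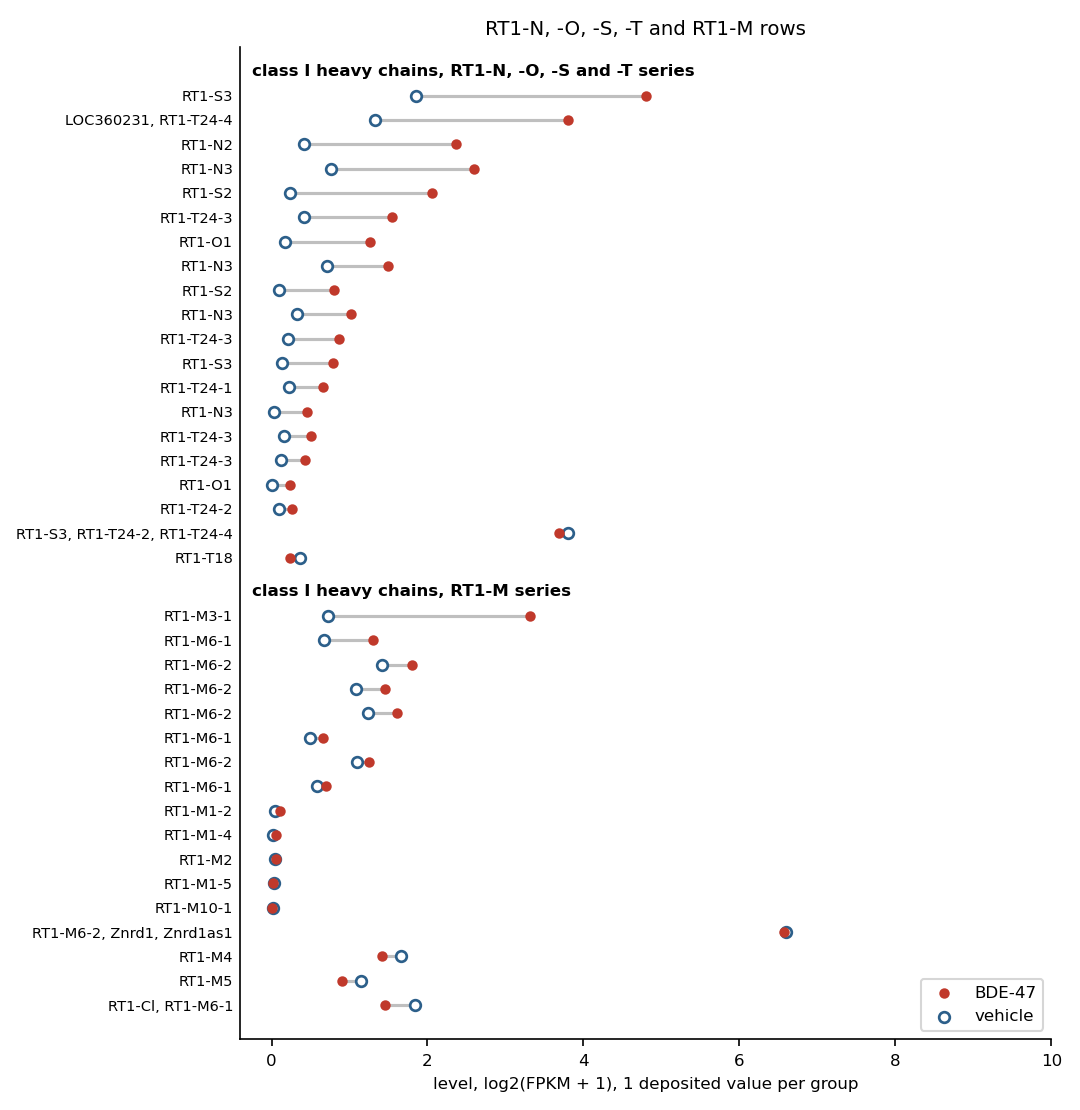
Levels of the RT1-N, -O, -S and -T rows and the RT1-M rows, as log2(FPKM + 1), with 1 deposited value per group (filled red, BDE-47; open blue, vehicle). In the upper block 18 of 20 red points lie right of the blue ones. In the lower block RT1-M3-1 stands apart, and the points of every other row lie within 0.64 of each other.

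Of the genes for peptide transport and loading, Tap1 was at 7.84 FPKM in the BDE-47 column, against 0.624 FPKM in the vehicle column, 12.6-fold higher. Tap2, the partner of Tap1 in the transporter, was listed at 0 in both columns in each of its 2 rows. Tapbp was measured only in a row merged with Daxx and Zbtb22, at 48.5 FPKM in the BDE-47 column and 46.5 FPKM in the vehicle column, a difference of 0.06 that was negative under all 3 other scalings, the lowest being -0.36. Of 14 further rows of class I loading and peptide trimming, 5 were higher and none was lower, with a median of 0.45. The 5 were 35.7%, against 18.2% of all named rows. Under each of the 3 other scalings 3 were higher, and the median was 0.03 under median-of-ratios scaling. They were led by Tapbpl, a relative of tapasin (10.4 FPKM in the BDE-47 column and 0.841 FPKM in the vehicle column), and Erap1, which trims peptides in the endoplasmic reticulum (14.3 FPKM in BDE-47 and 1.64 FPKM in vehicle). The higher rows of this list also count Sppl2a, a protease of endosomal membranes and so of the class II side. Its higher row was at 6.63 FPKM in BDE-47 and 1.24 FPKM in vehicle. The peptidase gene Lap3 was at 28.2 FPKM in BDE-47 and 13.0 FPKM in vehicle. Of 8 rows of class I related molecules outside the RT1 names, 3 were higher and none was lower. Under each other scaling 1 row was lower, and 1 was higher under quantile normalization. The 3 higher rows were 37.5%, against 18.2% of all named rows. They were led by the merged row of Fcgrt, the neonatal Fc receptor, and Rcn3 (46.2 FPKM in BDE-47 and 5.06 FPKM in vehicle). Procr, a receptor of protein C, was at 3.14 FPKM in the BDE-47 column and 0.574 FPKM in the vehicle column, and Cd1d1, which presents lipids, at 1.95 FPKM in BDE-47 and 0.245 FPKM in vehicle.

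All 3 inducible catalytic subunits of the proteasome were higher in the BDE-47 column. Psmb8 was at 51.6 FPKM in the BDE-47 column, against 3.43 FPKM in the vehicle column, 15-fold higher. Psmb9 was at 58.9 FPKM in the BDE-47 column, against 4.50 FPKM in the vehicle column, 13.1-fold higher. Psmb10, in a row merged with the protease gene Ctrl, was at 44.3 FPKM in the BDE-47 column, against 9.85 FPKM in the vehicle column, 4.50-fold higher. These subunits replace Psmb5, Psmb6 and Psmb7 of the standard proteasome, none of which came past 2-fold. Psmb5 was at 72.5 FPKM in the BDE-47 column and 69.6 FPKM in the vehicle column, Psmb6 at 88.0 FPKM in BDE-47 and 44.3 FPKM in vehicle, and Psmb7 at 83.3 FPKM in BDE-47 and 57.7 FPKM in vehicle. Within the BDE-47 column the ratio of inducible to standard subunit was 0.712 for Psmb8 to Psmb5, 0.669 for Psmb9 to Psmb6 and 0.532 for Psmb10 to Psmb7. Within the vehicle column the same ratios were 0.0494, 0.102 and 0.171. A ratio within a column does not change when the column is multiplied by a factor, so the 14.4-fold, 6.59-fold and 3.12-fold differences of the ratios do not depend on such scaling.

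**Figure D3:**
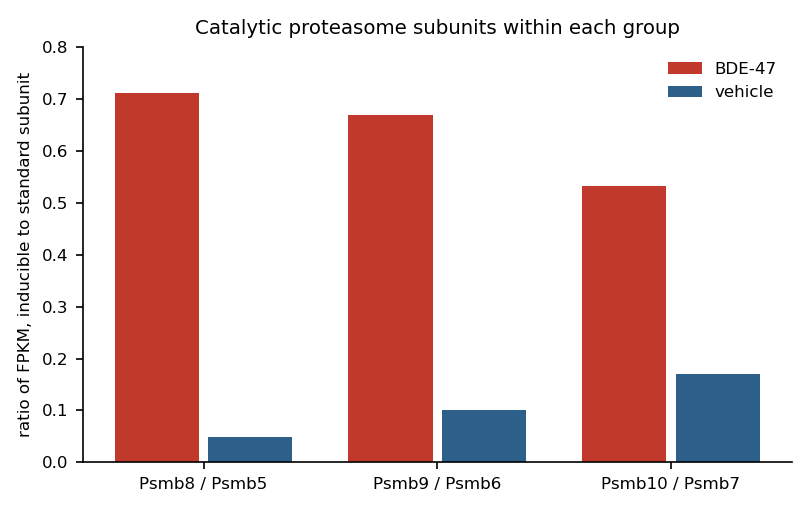
Ratio of FPKM of each inducible catalytic proteasome subunit to the standard subunit that it replaces, in the BDE-47 column (red, left) and the vehicle column (blue, right), from 1 deposited value per group; the Psmb10 row is merged with Ctrl. The red bars stand at 0.532 to 0.712 and the blue bars at 0.0494 to 0.171.

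Of the activators and assembly factors of the proteasome, 2 of 10 rows were higher and none was lower. This share of 20% lay near the 18.2% of all named rows. The median was 0.42, and -0.02 under quantile normalization. Psme1 and Psme2 form an activator that is paired with the inducible subunits in immune cells. Psme1 was at 113 FPKM in the BDE-47 column and 8.17 FPKM in the vehicle column, and Psme2 at 47.8 FPKM in BDE-47 and 5.35 FPKM in vehicle. Psme3, the related nuclear activator, named here after its values were seen, in a row merged with Aoc2-ps1, was at 41.9 FPKM in the BDE-47 column and 39.1 FPKM in the vehicle column. The ratio of Psme1 to Psme3 was 2.69 in the BDE-47 column and 0.209 in the vehicle column.

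Among the class II chains, the classical alpha chains showed the largest differences on the log2(FPKM + 1) scale, and RT1-DOb the largest fold at a low level. RT1-Da, the counterpart of the human HLA-DR alpha chain, was at 90.5 FPKM in the BDE-47 column, against 5.78 FPKM in the vehicle column, 15.7-fold higher. RT1-Db1, which encodes its beta chain, was at 35.3 FPKM in the BDE-47 column, against 6.77 FPKM in the vehicle column, 5.21-fold higher. RT1-Db2 was at 0.555 FPKM in the BDE-47 column and 0.0698 FPKM in the vehicle column, under the 2-fold rule because both values are low. RT1-Ba, the counterpart of the HLA-DQ alpha chain, was at 39.1 FPKM in the BDE-47 column, against 2.99 FPKM in the vehicle column, 13.1-fold higher. RT1-Bb, which encodes the beta chain paired with it, was at 57.3 FPKM in the BDE-47 column and 41.6 FPKM in the vehicle column, 1.38-fold higher and within 2-fold. The ratio of RT1-Ba to RT1-Bb was therefore 0.683 in the BDE-47 column and 0.0718 in the vehicle column, while that of RT1-Da to RT1-Db1 was 2.57 in the BDE-47 column and 0.853 in the vehicle column. No other named row has the bounds of RT1-Bb.

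RT1-DOa and RT1-DOb encode the chains of a molecule that holds back peptide exchange on class II. RT1-DOb was at 2.14 FPKM in the BDE-47 column, against 0.0759 FPKM in the vehicle column, 28.2-fold higher, and RT1-DOa was at 1.54 FPKM in BDE-47, against 0.198 FPKM in vehicle. The peptide exchange factor itself, RT1-DM, was listed at or next to 0. RT1-DMa was listed at 0 in both columns in each of 2 rows, as was RT1-Ha, and RT1-DMb was at 0.00760 FPKM in the BDE-47 column in 1 of 2 rows. Of the 13 class II rows, 5 (38.5%, against 18.2% of all named rows) were higher and none was lower. Over the 13 rows the median difference was 0.45, and 0.03 under median-of-ratios scaling. The 13 include the RT1-DMa, RT1-DMb and RT1-Ha rows at or next to 0. With a mean of at least 1 FPKM required, 4 of 5 were higher, against 27.6% of all such named rows. Their median was 2.22, against 0.37 over all such named rows.

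The rows listed at 0 in both columns were 8 of the 72, and 7 of them belong to genes that the table lists at separate places on chromosome 20. Tap2, RT1-DMa, RT1-DMb and RT1-Ha each have a row between positions 5955099 and 6089133 and another of the same length, within 5 bases, between 7259226 and 7349292. The order of the 4 genes is reversed in the second interval. Psmb9, Tap1, Psmb8 and RT1-DOa, which lie between these genes in the first interval, have a single row each and were not at 0. Over the whole table, 543 named rows have a row of the same name and length elsewhere on the assembled chromosomes, and 520 of these, 95.8%, were listed at 0 in both columns. Of the other named rows, 7.35% were. The 0 of Tap2, RT1-DM and RT1-Ha was thus the usual entry for a name with such a copy, and no difference can be read for these genes. The remaining row at 0 was RT1-CE13 on an unlocalised sequence of chromosome 20.

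**Figure D4:**
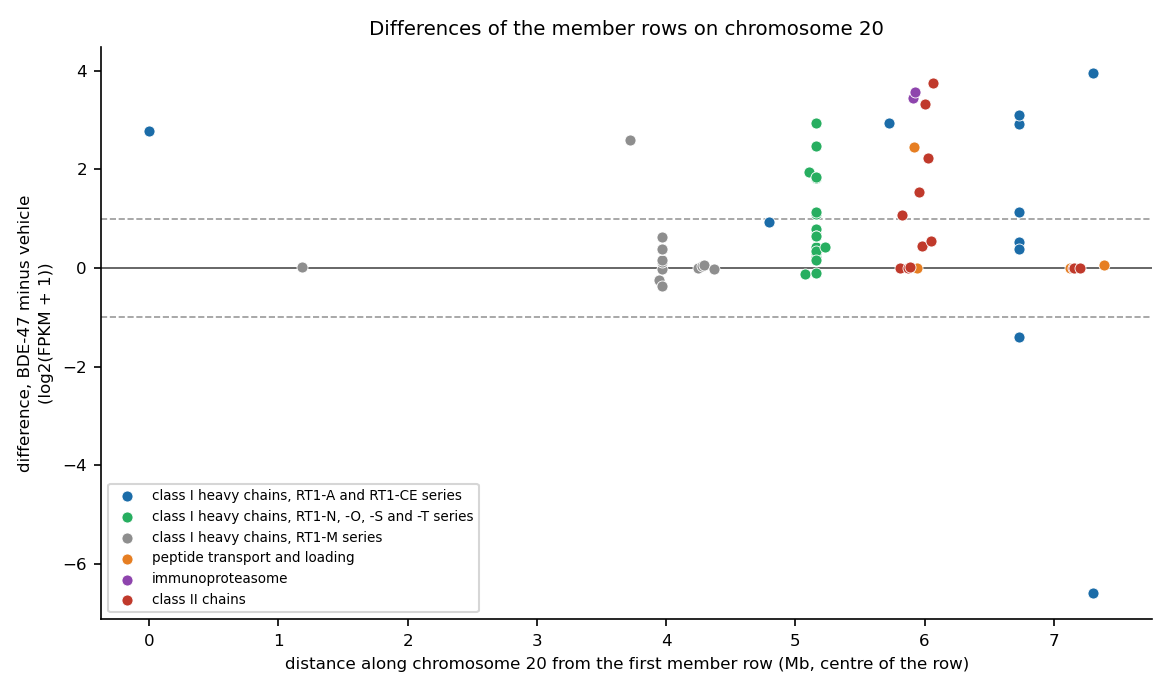
Difference of log2(FPKM + 1), BDE-47 minus vehicle, of each member row on chromosome 20, by distance from the first member row in Mb and coloured by role; dashed lines mark the 2-fold rule of 1 and -1. The RT1-M rows gather around 0 apart from RT1-M3-1, the class II and immunoproteasome rows reach from 0 to 3.76, and the lowest point is RT1-A1 at -6.60.

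Cd74, the invariant chain, on chromosome 18, was at 232 FPKM in the BDE-47 column, against 17.0 FPKM in the vehicle column, 13.6-fold higher. In an unplanned comparison, the alpha chains RT1-Da and RT1-Ba kept nearly the same ratio to Cd74 in both columns. For RT1-Da it was 0.390 in the BDE-47 column and 0.339 in the vehicle column. For RT1-Ba it was 0.168 in the BDE-47 column and 0.176 in the vehicle column. The beta chains did not keep theirs, as RT1-Db1 was 5.21-fold and RT1-Bb 1.38-fold higher, against 13.6-fold for Cd74. Ciita, the coactivator that switches on class II genes, lay within 2-fold. It was at 3.86 FPKM in the BDE-47 column and 2.97 FPKM in the vehicle column, a difference of 0.29 that was -0.04 under median-of-ratios scaling and -0.39 under quantile normalization. Genes of the endosomal processing that serves class II were higher as a group, 12 of 14 rows with none lower and a median of 2.74. The 12 were 85.7%, against 18.2% of all named rows. Ctss, a protease that cuts the invariant chain, was at 64.4 FPKM in the BDE-47 column and 3.89 FPKM in the vehicle column, the protease genes Ctsb at 333 FPKM in BDE-47 and 25.5 FPKM in vehicle and Ctsz at 16.9 FPKM in BDE-47 and 0.753 FPKM in vehicle, and the disulfide reductase gene Ifi30 at 37.8 FPKM in BDE-47 and 2.31 FPKM in vehicle. Of 10 rows of co-stimulatory and surface genes of presenting cells, 3 (30%, against 18.2% of all named rows) were higher and none was lower. They were Cd83 (4.59 FPKM in the BDE-47 column and 0.432 FPKM in the vehicle column), Icam1 (4.56 FPKM in BDE-47 and 0.503 FPKM in vehicle) and Cd86 (1.84 FPKM in BDE-47 and 0.155 FPKM in vehicle). The median of the 10 rows was 0.53, and 0.29 under median-of-ratios scaling. Under quantile normalization it was 0.01, and 2 rows were higher.

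Of 30 rows of known regulators of MHC transcription, 12 were higher and 1 was lower in the BDE-47 column. The 12 were 40%, against 18.2% of all named rows. The median over the 30 rows was 0.73, and 0.07 under quantile normalization, where 10 were higher and 6 lower. The genes with the largest differences belong to interferon and NF-kB signalling. Irf1 was at 14.6 FPKM in the BDE-47 column and 1.01 FPKM in the vehicle column, the kinase gene Jak2 at 21.9 FPKM in BDE-47 and 2.55 FPKM in vehicle and Nfkb1 at 8.11 FPKM in BDE-47 and 0.555 FPKM in vehicle. The lower row was 1 of 4 Irf8 rows, which share their bounds, at 2.48 FPKM in BDE-47 and 5.98 FPKM in vehicle, while another Irf8 row was at 6.41 FPKM in BDE-47 and 1.39 FPKM in vehicle. The genes whose products bind the promoter elements shared by class II genes lay within 2-fold, and they are named here after their values were seen. Rfxap was at 12.0 FPKM in the BDE-47 column and 7.46 FPKM in the vehicle column, Rfxank at 8.46 FPKM in BDE-47 and 12.6 FPKM in vehicle, and the 2 rows of Rfx5 at 8.11 FPKM in BDE-47 and 4.44 FPKM in vehicle and at 3.89 FPKM in BDE-47 and 5.17 FPKM in vehicle. Ifng, which encodes interferon gamma and is also named after its values were seen, was at 1.27 FPKM in BDE-47 and 1.51 FPKM in vehicle.

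Promoter sequences were searched for the letters of elements known to act in MHC promoters. Windows of 300 bases, from 250 before to 50 after the start of each gene, came from RefSeq on build GRCr8, which is not the build of the expression table, and 49 of 57 member symbols had one. The X1 box and the Y box are the elements bound by the Rfx complex and by NF-Y in class II promoters. The letters ACNGATG, from the core of the X1 box, were found on either strand in 16 of the 49 windows and in 10.2% of all 33469 windows. The letters ATTGG, from the core of the Y box, were found in 34 of the 49 and in 37.5% of all windows. Both on the same strand, X1 before Y with 20 to 23 bases between them, were found in 10 of the 49 windows and in 13 of all 33469. That spacing was set after the member windows had been read. Of the 10, 6 were class II chains, out of 9 with a window. The others were the class I genes RT1-CE10, RT1-CE3, RT1-CE5 and RT1-M3-1. The pairs are shown for 5 of these class II chains, without RT1-Db2, and for RT1-M3-1 of the class I genes. The X1 and Y letters are in capitals.
RT1-Da, chr20:4515328-4515378, plus strand: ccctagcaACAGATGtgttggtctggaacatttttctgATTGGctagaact
RT1-Db1, chr20:4560230-4560279, minus strand: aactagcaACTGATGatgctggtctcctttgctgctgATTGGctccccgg
RT1-DOb, chr20:4627594-4627641, minus strand: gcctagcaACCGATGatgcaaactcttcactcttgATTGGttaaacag
RT1-Bb, chr20:4604167-4604216, minus strand: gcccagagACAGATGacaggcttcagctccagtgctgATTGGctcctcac
RT1-DMa, chr20:4712387-4712437, minus strand: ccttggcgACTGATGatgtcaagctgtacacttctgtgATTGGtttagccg
RT1-M3-1, chr20:1333376-1333426, minus strand: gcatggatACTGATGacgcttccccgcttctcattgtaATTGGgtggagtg
RT1-Bb, within 2-fold, holds the pair as RT1-Da, RT1-Db1 and RT1-DOb do, which were higher, and for RT1-DMa no difference can be read. RT1-Db2, within 2-fold at low levels, holds it too. RT1-Ba was higher and its window holds ATTGG but not ACNGATG.

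The letters GAAA, any 2 bases and GAAA again, from the interferon-stimulated response element, were found on either strand in 9 of the 49 windows and in 3.92% of all windows. They stood in all 3 windows of Tap1, Tap2 and Tapbp, in 2 of the 3 immunoproteasome windows, in B2m and in RT1-N3, RT1-S2 and RT1-S3, and in none of the 9 class II windows. The stretches of 5 genes of class I processing are shown because they cover the light chain, the proteasome and the steps of transport and loading. The capitals mark these letters or, for Psmb8 and Tap1, their reverse complement. In Tapbp, overlapping matches begin at -26 and -20 from the start of the gene, and the capitals mark only the latter.
B2m, chr3:129549165-129549204, plus strand: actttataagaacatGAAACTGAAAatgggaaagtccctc
Psmb8, chr20:4657011-4657050, minus strand: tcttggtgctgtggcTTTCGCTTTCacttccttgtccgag
Tap1, chr20:4668640-4668679, minus strand: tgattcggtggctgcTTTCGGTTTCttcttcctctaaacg
Tap2, chr20:4652313-4652352, minus strand: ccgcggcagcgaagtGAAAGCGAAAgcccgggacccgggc
Tapbp, chr20:4967873-4967912, minus strand: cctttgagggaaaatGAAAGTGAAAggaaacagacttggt
B2m, Psmb8 and Tap1 were 12.2-fold to 15-fold higher, Tapbp was measured only in a merged row, and for Tap2 no difference can be read. Psmb9, 13.1-fold higher, has no such match in its window. The letters TTCNNNGAA, from the gamma-activated site, were found in 3 of the 49 windows and in 8.87% of all windows, and in none of the class II windows.

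Of the marker lists of other cell types, those of Leydig cells, macrophages and Sertoli cells had the largest shares of rows higher, at 100%, 75% and 63.6%, against 18.2% of all named rows. Of 16 macrophage rows, 12 were higher and none was lower in the BDE-47 column, and their sum was 860 FPKM in the BDE-47 column and 541 FPKM in the vehicle column. Aif1 alone held 413 FPKM in BDE-47 and 505 FPKM in vehicle of these sums. Cd68, named after its values were seen, was at 17.4 FPKM in the BDE-47 column and 0.796 FPKM in the vehicle column. Of 18 dendritic cell rows 4 were higher and 1 was lower (sums of 68.7 FPKM in BDE-47 and 31.3 FPKM in vehicle), of 15 T cell rows 3 were higher (22.2 FPKM in BDE-47 and 16.7 FPKM in vehicle), of 8 B and plasma cell rows 3 (274 FPKM in BDE-47 and 195 FPKM in vehicle) and of 8 NK cell rows 2 (9.29 FPKM in BDE-47 and 2.38 FPKM in vehicle). The shares higher of the dendritic cell, T cell and endothelial lists, at 22.2%, 20% and 22.2%, lay near that of all named rows. A single Ms4a1 row held 256 FPKM in BDE-47 and 182 FPKM in vehicle of the B and plasma cell sums, and a row merged of Eqtn and Tek held 133 FPKM in BDE-47 and 88.0 FPKM in vehicle of the endothelial sums. None of the T cell rows was higher under any of the 3 other scalings. The medians of the T cell and dendritic cell lists turned negative under quantile normalization, at -0.13 and -0.04. There the count of higher rows became 0 for NK cells and 1 for B and plasma cells, with 1 lower, and the count of lower spermatid rows became 2, with a median of -0.41. Of somatic cells, all 8 Leydig cell rows were higher (1688 FPKM in BDE-47 and 153 FPKM in vehicle). A row merged of Insl3 and Jak3 held 904 FPKM in BDE-47 and 71.0 FPKM in vehicle of these sums. Higher, with none lower, were also 7 of 11 Sertoli cell rows (1873 FPKM in BDE-47 and 340 FPKM in vehicle). Clu alone held 1520 FPKM in BDE-47 and 267 FPKM in vehicle of the Sertoli cell sums. The same held for 3 of 6 peritubular rows (259 FPKM in BDE-47 and 93.0 FPKM in vehicle). Of 9 endothelial rows 2 were higher and none was lower (154 FPKM in BDE-47 and 94.6 FPKM in vehicle). Of 8 spermatid rows 5 were lower, with sums of 30823 FPKM in the BDE-47 column and 77004 FPKM in the vehicle column, and of 6 spermatocyte rows 3 were higher (994 FPKM in BDE-47 and 522 FPKM in vehicle), which became 0 under median-of-ratios scaling. The only marker listed at 0 was Gata1, in both of its rows, and markers of germ, Sertoli and Leydig cells were measured in both columns, as the testis label has it. The part of these cell types in the MHC differences was not tested.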

How the data were processed

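The authors deposited 1 table with log2 FPKM per group and row and a log2 ratio, which was checked to be the difference of the columns within 0.01. Per the submitters' processing notes, TopHat2, Cuffdiff 2.1.1 and build rn5 were used. How libraries were pooled, which annotation served and how reads with several matches were counted is not stated in the labels. The value -10 is the floor of the deposited log2 columns and was read as listed at 0, which can be a failed estimate. Depth is unknown. The labels give testis as tissue, although the extraction text speaks of liver.

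FPKM was taken as 2 to the power of the deposited value, and differences are of log2(FPKM + 1), BDE-47 minus vehicle (pandas 2.3.3, NumPy 2.4.6). With 1 value per group the planned limma test could not be run, and the 2-fold rule of size stood in for it. All 20638 named rows, with no filter, are the background. Row starts count from 0 in the table and from 1 here. The members, gene lists and rules were chosen with earlier results of these data known. Member rows are given by value or in counts. Of each pathway list, up to 4 rows past 2-fold with the largest difference are named, and Psmb5, Psmb6 and Psmb7 always. A regulator that this rule takes is not reported here. The calculations were tested on simulated data. Other pseudocounts, filters, row choices and scalings were tried.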

Additional observations from a re-analysis of the deposited data

How the results depend on the processing

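The count of 25 rows higher became 40 with a pseudocount of 0.1 FPKM and 42 with 0.01 FPKM. With a mean of at least 5 FPKM required, it was 15 of 21 rows. These were 55.6%, 58.3% and 71.4% of the member rows kept, against 34.7% as reported. Of all named rows, 27.2%, 30.8% and 25.7% were higher in these settings, against 18.2% as reported. The 2 lower rows became 0 once rows of the same bounds were summed. The median difference became 1.31 and 1.75 with pseudocounts of 0.1 and 0.01 FPKM, and 1.83 and 2.92 with a mean of at least 1 and 5 FPKM. The median of all named rows was 0.20, 0.29, 0.37 and 0.31 in the same settings. By construction, lower pseudocounts compress low rows less and the filters remove them. RT1-DOb exceeded RT1-Da with the pseudocount of 0.01 FPKM, at 4.65 and 3.97. The count was 21 under median-of-ratios scaling, which took out a shift of 0.43 log2 units, and under quantile normalization. It was 25 without the 19 most abundant or mitochondrial loci. Of all named rows, 12.4%, 9.64% and 15.3% were higher under these scalings in turn, and 7.87%, 9.17% and 4.44% were lower. No row called higher or lower changed sign under the alternatives that keep single rows, whereas 9 rows within 2-fold changed sign under at least 1 scaling. The fold differences of the inducible to standard proteasome ratios, which use no pseudocount, moved at most to 9.89, 4.83 and 2.40, under quantile normalization. With 1 value per group, replicates could not be left out. No paired analysis was possible because the table has no value per library.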
